A study of Mus musculus with 14 samples.

Results

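Monomethylation of lysine 4 of histone H3 (H3K4me1) was mapped by ChIP-seq in NG3 cells, and the regions described here are the long stretches of the genome in which no H3K4me1 site was called. A stretch was counted where more than 500 kb of sequenced mm10 lay between the end of a site and the start of the next on chromosomes 1 to 19. The stretches were thus selected on the measured positions of the sites, and their lack of sites is the choice itself and not a result. The rule found 335 stretches among 157529 gaps between neighbouring sites (0.213%), and they held 380.4 Mb, or 15.88%, of the 2396 Mb of sequenced bases on these chromosomes. Of the 20807 protein-coding genes that GENCODE M21 places on chromosomes 1 to 19, 1790 lay wholly inside a stretch (8.6%, 95% Wilson interval 8.229 to 8.992%), and this share is the background against which each gene family is set below.

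NG3 cells are immortalized mouse embryo fibroblasts, a single clone whose endogenous Ash2l gene was deleted by a Cre-ER recombinase and which lives on a lentivirally expressed fusion of human ASH2L with an FKBP degron tag. All groups share this genotype. The control cells received no dTAG-13, the PROTAC that triggers degradation of the fusion protein, and the other cells were treated with it for 0.5, 2, 4, 8 or 16 h. Each of the 6 conditions had 2 H3K4me1 samples, and inputs came from the control and the 16 h cells. The deposited table gives the sites of all samples as 1 set of 160144 positions without a read count or signal, so the depth of the samples is unknown from it, no value could be given per sample or time, and a stretch is free of sites of this set, which does not mean free of H3K4me1. How sites of single samples were joined into the set is not given in the sources used here.

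As background, H3K4me1 is laid down by the COMPASS/KMT2 methyltransferase complexes, of which ASH2L is a core subunit, and marks enhancers and the flanks of active promoters. Genes used in every cell usually start in a CpG island, a run of sequence rich in the CpG dinucleotide, whereas many genes of a single tissue have CpG-poor promoters. Several of the latter sit in arrays of tandem copies, among them the receptors for odours and pheromones, which are used by single sensory neurons and are silent elsewhere, and the immunoglobulin and T cell receptor segments of lymphocytes.

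The promoters inside the stretches are shown first for some members on which the results turn. Each line gives the 250 bases before the most upstream annotated start in GRCm38.p6, 5′ to 3′ on the gene's strand, with CpG dinucleotides in capitals. The first lines belong to sensory receptors of the stretches with the most genes, Olfr1167 (chr2:88155194-88155443, minus strand) and the vomeronasal receptor gene Vmn1r183 (chr7:24053004-24053253, plus strand).
Olfr1167: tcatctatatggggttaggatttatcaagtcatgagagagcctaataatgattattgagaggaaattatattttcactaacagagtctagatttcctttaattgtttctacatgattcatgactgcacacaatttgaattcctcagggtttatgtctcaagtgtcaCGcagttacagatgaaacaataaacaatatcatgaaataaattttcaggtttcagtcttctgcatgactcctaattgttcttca
Vmn1r183: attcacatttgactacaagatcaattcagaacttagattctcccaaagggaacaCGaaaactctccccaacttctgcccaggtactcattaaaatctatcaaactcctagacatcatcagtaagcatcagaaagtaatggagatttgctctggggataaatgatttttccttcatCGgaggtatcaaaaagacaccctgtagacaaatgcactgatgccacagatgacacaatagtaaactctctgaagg

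Olfr1167 held 1 CpG and 32.8% GC in these 250 bases, and Vmn1r183 held 2 CpGs and 39.6% GC. The start of Olfr1167 lay 2.97 kb from the nearest called site and that of Vmn1r183 28.8 kb, since each is the last gene of its stretch.

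A smaller set of genes inside the stretches has promoters with more CpGs than these receptors. Pou3f3 (chr1:42695518-42695767, plus strand), a POU homeobox factor of the developing brain, and Pcdh8 (chr14:79771313-79771562, minus strand), a protocadherin, have the longest islands of all genes inside. Cdh8 (chr8:99416472-99416721, minus strand), a cadherin of neurons, is the only coding gene in the second-longest stretch. Ranbp1 (chr16:18248733-18248982, minus strand), which encodes a partner of the Ran GTPase in nuclear transport, and Men1 (chr19:6334729-6334978, plus strand), which encodes menin, a subunit of some KMT2 complexes, are broadly used genes, and the reason for showing them is given with the copied sequence below.
Pou3f3: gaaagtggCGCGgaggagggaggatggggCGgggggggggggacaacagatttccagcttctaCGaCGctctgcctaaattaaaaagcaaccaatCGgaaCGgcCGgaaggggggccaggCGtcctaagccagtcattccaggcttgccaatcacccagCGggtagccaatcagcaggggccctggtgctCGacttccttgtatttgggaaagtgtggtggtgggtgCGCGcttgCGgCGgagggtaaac
Pcdh8: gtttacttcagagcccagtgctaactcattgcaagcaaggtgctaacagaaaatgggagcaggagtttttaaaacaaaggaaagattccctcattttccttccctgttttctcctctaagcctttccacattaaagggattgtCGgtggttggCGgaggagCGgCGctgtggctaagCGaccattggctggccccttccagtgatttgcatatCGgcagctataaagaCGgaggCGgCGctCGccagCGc
Cdh8: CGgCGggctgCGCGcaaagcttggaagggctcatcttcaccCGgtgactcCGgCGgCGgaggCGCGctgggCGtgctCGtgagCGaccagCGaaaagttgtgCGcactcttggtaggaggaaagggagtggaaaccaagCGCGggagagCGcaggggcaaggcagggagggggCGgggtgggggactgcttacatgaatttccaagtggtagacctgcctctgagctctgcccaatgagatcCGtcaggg
Ranbp1: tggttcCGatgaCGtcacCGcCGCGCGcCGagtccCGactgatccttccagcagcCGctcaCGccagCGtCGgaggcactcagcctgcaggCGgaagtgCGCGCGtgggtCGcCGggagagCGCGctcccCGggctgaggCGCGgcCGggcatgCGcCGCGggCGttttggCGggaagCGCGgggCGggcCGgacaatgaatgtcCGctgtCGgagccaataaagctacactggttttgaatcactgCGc
Men1: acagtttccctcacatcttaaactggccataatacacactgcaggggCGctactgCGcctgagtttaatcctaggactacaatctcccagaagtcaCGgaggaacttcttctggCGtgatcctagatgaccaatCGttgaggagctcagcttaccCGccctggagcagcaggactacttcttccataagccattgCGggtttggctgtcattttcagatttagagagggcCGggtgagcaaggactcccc

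These windows held 15 CpGs in Pou3f3, 11 in Pcdh8, 20 in Cdh8, 36 in Ranbp1 and 8 in Men1. They lay 155, 110, 1449, 249 and 177 kb from the nearest called site.

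The stretches ranged from 500.7 to 5043 kb of sequenced bases, with a median of 843 kb and quartiles of 648.2 and 1307 kb. Of the 335, 141 were over 1 Mb, 40 over 2 Mb, 12 over 3 Mb and 5 over 4 Mb. The longest, 5.04 Mb at chr1:24751510-29794754, held 3 coding genes, Adgrb3, an adhesion G protein-coupled receptor of neurons, and the uncharacterized 4931408C20Rik and Gm597. The next 2 held 1 gene each, the cadherin genes Cdh8 (4.95 Mb, chromosome 8) and Cdh20 (4.88 Mb, chromosome 1). The fourth, of 4.68 Mb on chromosome 1, held Cntnap5a, which encodes a contactin-associated protein, and 7 uncharacterized gene models. The fifth, of 4.07 Mb on chromosome 7, was of another kind and held 104 genes, from Nlrp9b and Vmn1r91 to V1rd19 and Vmn1r183.

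**Figure D1:**
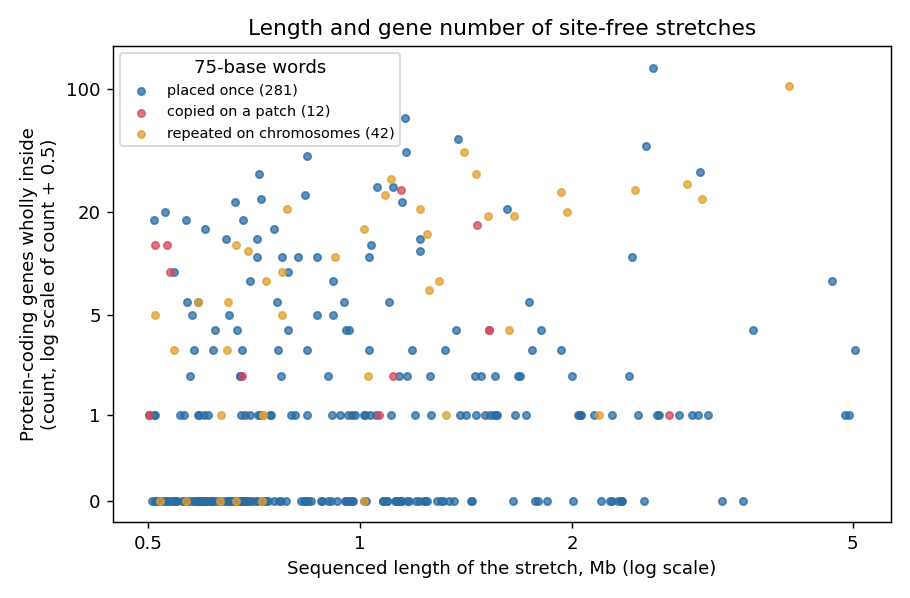
Sequenced length of each of the 335 stretches (x axis, Mb, log scale) against the number of protein-coding genes wholly inside (y axis, log scale of the count + 0.5). Colours give the class of the stretch. At least 20% of its 75-base words are copied on a patch or unplaced scaffold (taken first), at least 20% are repeated on the chromosomes, or neither (placed once). Copies on alternate loci are not counted. Stretches with 0 or 1 gene occur at nearly every length, and the stretch with most genes (132) is 2.6 Mb long.

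Gene-rich and gene-free stretches differed widely. No coding gene lay wholly inside 149 stretches and 1 gene inside 65, while the 55 stretches with 10 or more genes held 1445 of the 1790. Of the 149, 86 overlapped no coding gene at all (78.81 Mb together), 58 held the end of a coding gene that crossed the edge, and 5 lay within a single gene. Cntn5, Asic2, March1 and Ctnna2 were among these genes, between 0.854 and 1.24 Mb long, with stretches of 0.649 to 1.02 Mb inside them. Cntn5, March1 and Ctnna2 had a called site within 1 kb of their most upstream start and Asic2 had none.

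The gene density of the stretches was low in spite of the clusters. They held 1850 coding starts, or 4.86 per Mb, against 9.41 per Mb in the rest of the chromosomes, a ratio of 0.517. Without olfactory and vomeronasal receptor genes the densities were 2.55 and 9.12 per Mb. The density was lower inside than outside on 17 of 19 chromosomes. The exceptions were chromosome 2, with 13.8 against 9.89 per Mb, and chromosome 19, with 13.1 against 12.3 per Mb. Coding genes inside were short, with a median of 6428 bp against 19203 bp in the rest. The demand that a gene lie wholly inside favours short genes, and 203 genes only partly inside were counted with the rest. The 607 named genes inside that are not olfactory or vomeronasal receptors had a median of 13220 bp against 21586 bp for such genes in the rest. Long genes were present too, and 22 of the 218 autosomal coding genes over 500 kb lay wholly inside. Among the longest were Csmd1 (1643 kb), a complement control protein of neurons, Ptprt (1139 kb), a receptor phosphatase, Dab1 (1125 kb), a reelin adaptor, and Auts2 (1106 kb), a neurodevelopmental gene.

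The stretches were poorer in GC than the rest. Their GC content was 39.83% against 42.33%, and it was lower inside on each of the 19 chromosomes. Over single stretches it ranged from 35.65 to 51.14% with a median of 39.2%, whereas 3719 windows of 500 kb that touched no stretch had a median of 42.14% and quartiles of 39.55 and 44.76%. Of the 335 stretches, 178 lay under the lower quartile of the windows and 80 above their median, so the ranges overlapped broadly. Repeats took up 40.93% of the stretches and 32.07% of the rest, by the soft-masking of the reference. Outside these repeats the GC contents were 40.54 and 43.39%. CpGs numbered 6.27 per kb inside and 8.93 per kb in the rest, which is 0.158 and 0.199 of the number that the base composition predicts.

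**Figure D2:**
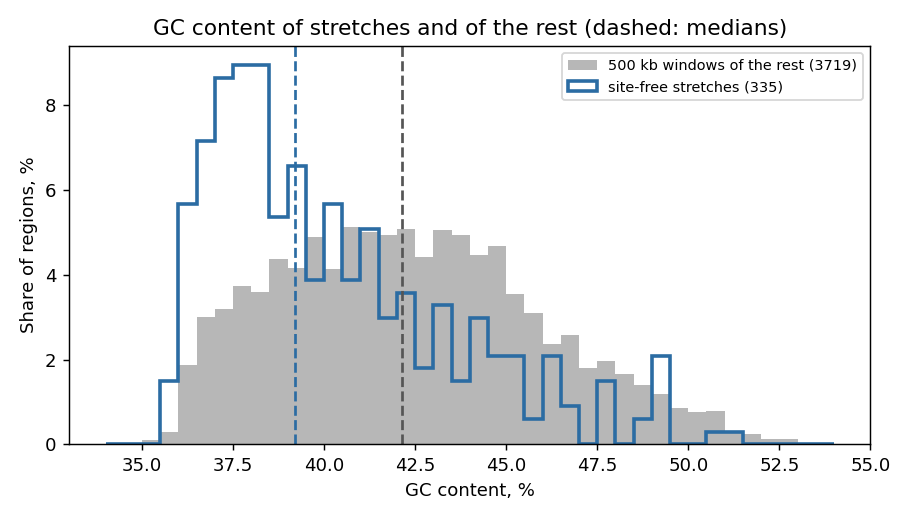
GC content (x axis, %) of the 335 stretches (blue outline) and of 3719 windows of 500 kb in the rest of chromosomes 1 to 19 (grey), as shares of regions (y axis, %). The medians (dashed) are 39.2 and 42.14%, and the stretches range from 35.65 to 51.14% with an upper quartile of 42.08%.

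CpG islands were scarcer than genes. Of the 16510 islands called on the repeat-masked autosomes, 402 lay inside stretches (2.43%), which is 1.06 per Mb against 7.99 per Mb in the rest, a ratio of 0.1322. The ratio was under 1 on all 19 chromosomes. It was 0.5439 when islands were called without masking repeats, so the size of the deficit depended on masking. An island lay within 1 kb of the most upstream start in 114 of the 1790 genes inside (6.37%, interval 5.328 to 7.596%) and in 11602 of the 19017 others (61%, 60.31 to 61.7%). Leaving out the olfactory and vomeronasal receptor genes, 12.5% of the remaining 911 genes had one. The choice of stretches all but bars genes with a site at the start, which 71.7% of the other genes had within 1 kb. How much of the contrasts in islands, gene density and start windows follows from this was not tested.

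The 250 bases before the start showed the same division base by base. Genes inside had a median of 1 CpG (quartiles 0 and 2) and 39.6% GC there, and the other genes 10 CpGs (3 and 18) and 55.2% GC. No CpG was present in 31.7% of the genes inside and in 5.1% of the others, and 10 or more in 4.97 and 51.1%. The letters TATAAA, searched on both strands, stood in 26.9% of the windows inside against 11.6% of all coding windows, and CCCNNGGG, which reads the same on both strands and resembles the core of EBF factor motifs, in 10.8 against 14%. Among olfactory receptors, which EBF factors are known to regulate, CCCNNGGG stood in 12.7% of the 629 windows inside and 14.6% of the 499 outside. TATAAA stood in 35.5 and 22.6%. AT-rich windows hold TATAAA more often by composition alone, and a match is no binding site. Many receptor genes are annotated from the start of the coding sequence, so for them the window may not be the promoter.

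Gene families were counted by symbol, and sensory receptors came first. Of the 1790 genes inside, 879 were olfactory or vomeronasal receptors (49.1%, interval 46.79 to 51.42%), against 3.03% of the other coding genes. Of 1128 olfactory receptor genes, 629 lay inside (55.8%), in 20 stretches. The largest group, 129 receptors from Olfr996 to Olfr1167, lay in the 2.6 Mb stretch at chr2:85555947-88158167, the stretch with the most coding genes (132). Groups of 64 and 42 lay on chromosome 7, 51 and 33 on chromosome 9, 40 on chromosome 2 beside the largest, and 37 on chromosome 17 from Olfr103 to Olfr136. The stretch of 64 on chromosome 7 ran on past Olfr67 into the beta-globin cluster and took in Hbb-bt, Hbb-bs and Hbb-bh2. Of 208 type 1 vomeronasal receptor genes, 165 lay inside (79.3%), in 10 stretches and from Vmn1r5 to Vmn1r232, and of 119 type 2 genes, 85 (71.4%), in 11 stretches from Vmn2r8 to Vmn2r120. Type 1 receptors took up 65 genes of the chromosome 7 stretch of Nlrp9b.

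Receptor genes outside the stretches mostly lacked a site at the start too. Of all 1128 olfactory receptor genes, 18 (1.6%) had a called site within 1 kb of the start, against 65.5% of all coding genes. The 499 outside the stretches lay a median of 28 kb from the nearest site and the 629 inside 270 kb. Large distances inside, and the near lack of sites at starts there, follow from how the stretches were chosen. All coding genes had a median of 0.09 kb. The farthest starts of all were those of Vmn1r138 and Cntnap5a, each 2053 kb from a site. Of the 1790 genes inside, 1 had a site within 1 kb of the start, Crybb3, a lens crystallin gene whose start lay 699 bp from the edge. No type 2 vomeronasal gene had a site within 1 kb, and 6 type 1 genes did. The trace amine-associated receptors, 15 olfactory receptors of another class, had no gene inside and no site within 1 kb either, at a median of 11.6 kb.

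**Figure D3:**
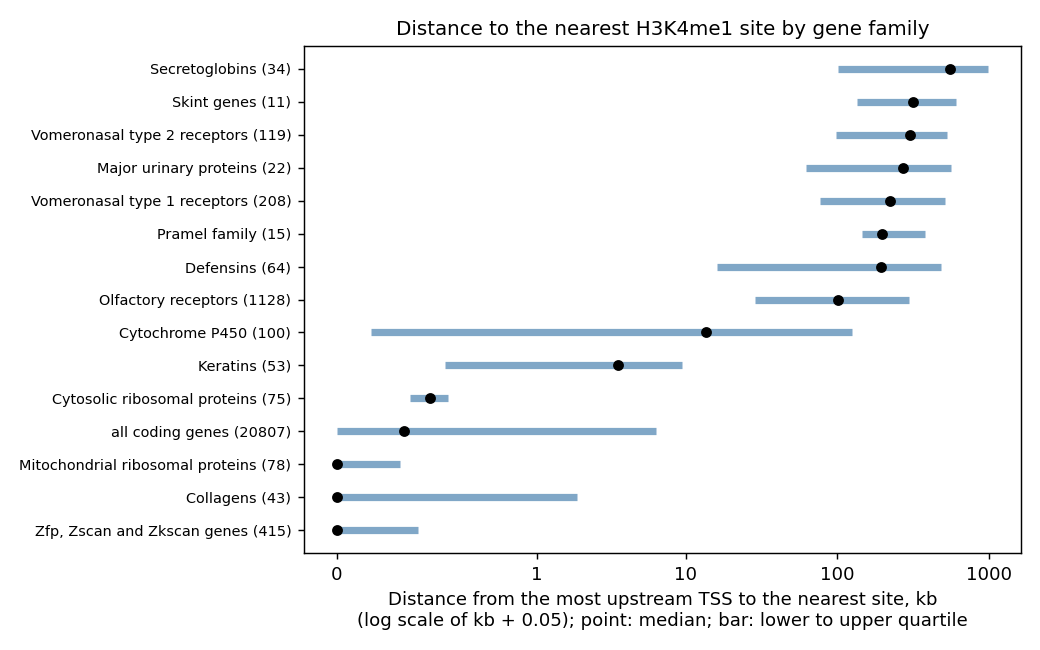
Distance from the most upstream start of each gene to the nearest called site (x axis, kb, log scale of kb + 0.05) for 14 gene families and all coding genes, with the number of genes in brackets. Points are medians and bars run from the lower to the upper quartile. Secretoglobins (median 552 kb), Vmn2r genes (304 kb) and Skint genes (316 kb) lie far from a site, and ribosomal proteins, collagens and Zfp, Zscan and Zkscan genes under 0.2 kb by their medians.

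Of 397 genes for secreted proteins of glands, skin, placenta and immune cells, 115 lay inside (29%), and the families differed widely. Of 34 secretoglobins, small proteins of exocrine secretions, 30 lay inside (88.2%), 29 of them in 1 stretch of chromosome 7 that began at Scgb2b2, and the other, Scgb2a2, on chromosome 19. Of 22 major urinary proteins, the pheromone carriers of mouse urine, 19 lay inside (86.4%), all in 1 stretch of chromosome 4. Of 64 defensins, antimicrobial peptides, 45 lay inside (70.3%) in 3 stretches, from Defb18 on chromosome 1 to Defb13 on chromosome 8. Of 28 pregnancy-specific glycoprotein and Ceacam genes, 16 lay in 1 stretch from Ceacam3 to Psg22 (57.1%). All 11 genes of the Skint family, whose member Skint1 acts in the selection of skin gamma-delta T cells, lay in 1 stretch from Skint8 to Skint11. The Pramel, Speer and Adam metalloprotease families had 18 of 58 genes inside (31%), with very different shares. Of these 18, 13 were oocyte and early embryo genes of the Pramel family, which has 15 (86.7%), from Pramel7 to Oog1. The Speer family had 2 of 10 genes inside (20%) and the Adam family 3 of 33 (9.09%). A called site lay within 1 kb of the start in 13 of the 33 Adam genes.

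Not every tandem family of other tissues lay inside. None of 26 prolactin family genes, 27 kallikreins, 60 serpins, 20 type I interferons, 53 keratins, 57 keratin-associated proteins, 8 casein and salivary gland genes, 13 Kazal-type inhibitors, 19 carboxylesterases and 36 late cornified envelope and Sprr genes was in a stretch. The Wilson intervals of serpins, keratins and keratin-associated proteins ended at 6.017, 6.758 and 6.314%, under the background of 8.6%. Those of the others ended above it, from 9.642% for late cornified envelope and Sprr genes to 32.44% for casein and salivary gland genes. For these others, a lack of genes inside cannot be set apart from the background. Many genes of the families named here had no called site near the start all the same. A site lay within 1 kb of the start in 3 prolactin genes (11.5%), 3 kallikreins (11.1%), 17 keratins (32.1%), 9 keratin-associated proteins (15.8%) and 26 serpins (43.3%), at median distances of 13.8, 37.9, 3.56, 12.3 and 2.21 kb. Enzymes and transporters of metabolism as a group lay near the background, with 52 of 550 genes inside (9.45%). Within the group the families differed. Inside were 23 of 100 cytochrome P450 genes (23%), 8 of 21 UDP-glucuronosyltransferases and 8 of 21 sulfotransferases (38.1% each). Lower were 11 of 358 solute carriers (3.07%) and 0 of 17 aldo-keto reductases. The interval of the aldo-keto reductases, 0 to 18.43%, takes in the background.

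Families used by all cells had few genes inside, and the fibroblast families had none. A site near a start all but keeps a gene out of a stretch, so low shares here are partly set by the choice of stretches. A called site lay within 1 kb of the start in 94.7% of cytosolic ribosomal, 94.9% of proteasome and 72.1% of collagen genes. Of 451 genes in 7 such families (ribosomal, mitochondrial ribosomal, proteasome, oxidative phosphorylation, initiation factor, Rab and histone genes), 2 lay inside (0.443%). These were Rpl10l and Cox7b2, testis-expressed relatives of Rpl10 and Cox7b. Of 43 collagens and 29 integrins none lay inside (95% intervals 0 to 8.201% and 0 to 11.7%). None of 14 fibroblast marker genes, such as Col1a1, Pdgfra and Twist1, lay in a stretch. A called site lay within 1 kb of a start in 12 of the 14. The integrin interval takes in the background of 8.6%, and 14 markers are too few to be set apart from it. Zinc finger genes named Zfp, Zscan or Zkscan, among them the Zscan4 cluster of early embryos, were inside near the background rate, 35 of 415 (8.43%). Of these 35, 31 lay in stretches where at least 20% of 75-base words were repeated on the chromosomes.

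**Figure D4:**
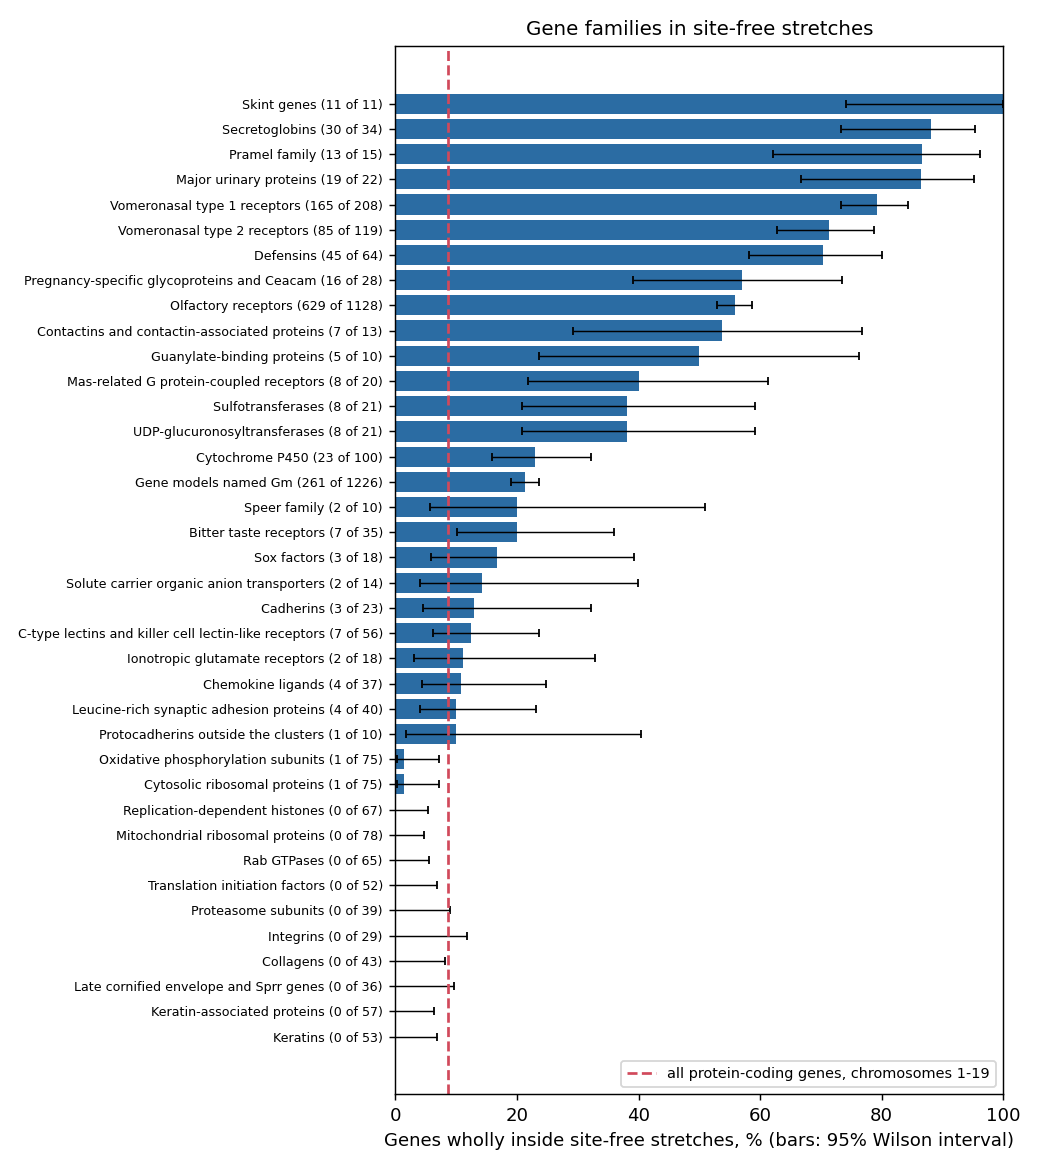
Share of each gene family that lies wholly inside a stretch (x axis, %), for families of at least 10 autosomal genes with a share of 10% or more and for the families of all cells, fibroblasts and the epidermis. Bars end at the share, whiskers are 95% Wilson intervals, brackets give genes inside of all genes, and the dashed line is the 8.6% of all coding genes. Olfactory and vomeronasal receptors, Mup genes, secretoglobins and defensins lie above 50% and the families of all cells under 1.5%.

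The intervals treat genes as independent, which genes of an array are not. Neighbours inside a stretch were of the same family in 61.4% of 1602 pairs and on the same strand in 64.6%, against 7 and 51.2% of 18817 pairs in the rest. A family's share therefore often rests on 1 or a few stretches, as given above.

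Genes of the nervous system and of embryonic patterning were a small part of the genes inside. As groups, the neural share lay near the background of 8.6% and the developmental share below it. Apart from the 898 sensory genes, most of the other genes inside were 310 that belong to no list and 304 gene models named Gm or Rik. Of 339 genes in the neural families 25 lay inside (7.37%, interval 5.045 to 10.66%), and of 225 developmental factors 8 (3.56%, 1.812 to 6.858%). Within them the contactins and contactin-associated proteins, cell adhesion molecules of axons, were inside in 7 of 13 cases (53.8%), from Cntnap5a to Cntnap5c. The starts of these 7 lay a median of 579 kb from a site, a distance that the choice of stretches favours, and none had a CpG island. None of 20 semaphorins, 57 clustered protocadherins and 14 sodium channel subunits was inside. Their Wilson intervals ended at 16.11, 6.314 and 21.53%, so only that of the clustered protocadherins lay under the background. The 8 developmental factors were Pou3f3, Pax1, Irx4, Sox1, Sox14, Sox17, Foxi1 and Neurod6.

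Some of these genes carried long CpG islands. The 10 longest islands at starts inside belonged to Pou3f3 (4014 bp), Pcdh8 (2966 bp), Sox1 (2747 bp), Tmem132e (2666 bp), Fezf1 (2271 bp), Fzd10 (2146 bp), Grik3 (1962 bp), Kcnk9 (1854 bp), Ajap1 (1812 bp) and Vstm2b (1660 bp). Sox1 and Fezf1 encode transcription factors of neural progenitors, Fzd10 a Wnt receptor, Grik3 a kainate receptor subunit and Kcnk9 a potassium channel. All 10 lay in stretches classed as placed once (defined below), 88.8 to 494 kb from the nearest site. Of the 25 neural genes inside 13 had an island at the start, of the 8 developmental factors 6, and of the 310 genes inside that belong to no list 82. None of the 898 sensory and 115 secreted-protein genes inside had one.

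Other gene types were counted in the same way. Of 366 immunoglobulin and T cell receptor V segments, 295 lay inside (80.6%, interval 76.24 to 84.33%), among them 76 and 37 of the 115 Igh segments in a pair of stretches on chromosome 12, 67 and 23 of the 100 Igk segments in a pair on chromosome 6, and 86 of the 108 Tra segments in a stretch of chromosome 14. Of 11594 pseudogenes 24.1% lay inside. Long noncoding RNA genes were inside in 7.5% of 9426 cases, miRNA genes in 11.6% of 2054 and other small RNA genes in 15.8% of 3628. Over all 51229 annotated autosomal genes the share was 13.2%.

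Whether a 75-base word of each stretch occurs elsewhere in GRCm38.p6 was counted every 200 bases, since a read from sequence with a second copy cannot be assigned to a single place. The study's methods name GRCm38.p6, a release with patches, as the reference, and whether the patch sequences were part of the alignment index is not given in the sources used here. Inside stretches 83.4% of words occurred once over the chromosomes, patches and unplaced scaffolds, against 93.5% in the rest. In 42 stretches (51.29 Mb, 581 genes) at least 20% of the words occurred more than once on the chromosomes. These held the chromosome 7 stretch from Nlrp9b to Vmn1r183 (23.95% of words placed once), the Mup cluster, the Scgb cluster on chromosome 7 (50.75%) and a zinc finger cluster on chromosome 2 (2.747%, the lowest of the 42). Over all autosomes, called sites were centred on words repeated on the chromosomes at 3.96 per Mb and on words found once at 70.9 per Mb.

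A second kind of copy lay on the patches of the reference. A fix patch is a corrected version of a piece of chromosome that the assembly carries as a separate sequence, and most of its bases are those of the chromosome. Of the autosomal words found once on the chromosomes, 15.3 Mb had a second copy on one of 65 fix patches. There, 2 sites were centred, or 0.131 per Mb. On 32 Mb whose only second copy was on an alternate locus of another strain the density was 95.4 per Mb. Among 52 fix patches with over 50 kb copied from chromosomes 1 to 19, 51 had no site centre at the copied words, and among 73 alternate loci of that kind 9 had none. Words copied on fix patches fell in stretches for 47.3% of their number, and words found once everywhere for 14.4%.

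Called sites were thus all but missing where a fix patch repeats the chromosome, and 12 stretches (13.33 Mb, 94 coding genes) had at least 20% of their words copied on a patch or unplaced scaffold. In these, 41.5% of the genes had a CpG island at the start and 1.06% were olfactory or vomeronasal receptors, against 6.01 and 63.8% of the 1115 genes in the 281 stretches placed once. In 3 of the 12 nearly all words were copied. The stretch at chr16:17986956-18497646 (1.137% of words placed once) held 13 genes, among them Dgcr8, a subunit of the microprocessor that cuts primary miRNAs, Ranbp1 and Txnrd2, a mitochondrial thioredoxin reductase. The one at chr15:57981523-58517742 (0.4476%) held 9 genes, among them Atad2, Zhx1 and Fbxo32, a ubiquitin ligase of muscle atrophy. The one at chr19:6157664-6814448 (4.823%) held 13 genes, among them Men1, the splicing factor gene Sf1, Ehd1 and Atg2a. An island lay at the start of 10, 7 and 10 of the genes in these 3 stretches, in that order. Genes named for copied sequence were chosen after their values were seen.

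In the other 9 the copied part was 24.97 to 62.33% of the words. They held Auts2, Rims1, which organizes synaptic vesicle release, Kazn and Tmem51, Nfya, a subunit of the CCAAT-binding factor NF-Y, the Trem receptors of myeloid cells, Dlk1 and Rtl1 of the imprinted cluster on chromosome 12, Pdpn and the Pramel genes of chromosome 4, and Skor2. No word of Auts2, Tmem51, Kazn, Nfya, Pdpn, Dlk1 or Rtl1, taken with 1 kb to either side, was placed once, whereas 100% of the words of Skor2 were. The part of copied or repeated sequence in the lack of sites was not tested.

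**Figure D5:**
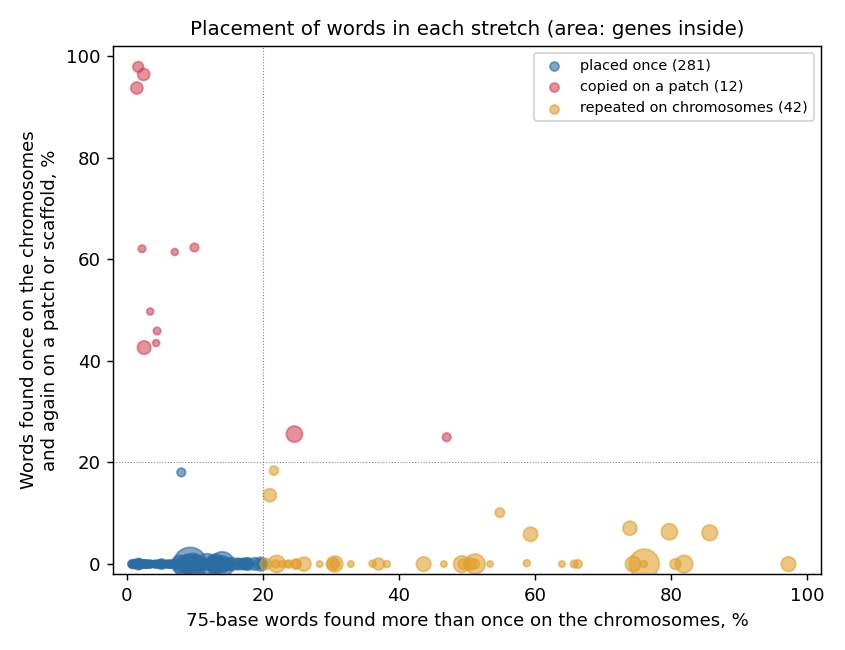
Share of 75-base words of each stretch found more than once on the chromosomes (x axis, %) against the share found once on the chromosomes and again on a patch or unplaced scaffold (y axis, %). Each point is a stretch, its area grows with the number of coding genes inside, and dotted lines mark 20%. The 3 points above 90% on the y axis hold Men1, Ranbp1 and Atad2, and most of the 281 stretches placed once lie near 0 on the y axis.

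Receptors made up a larger part of the genes inside in stretches classed as placed once, which held few of the secreted-protein genes. The class takes stretches with under 20% of words copied on a patch or scaffold and under 20% repeated on the chromosomes. It describes the stretch and not each gene. All words of Mup4, Mup5, Scgb2a2 and Defb13, which lie in repeated stretches, were placed once. The 281 stretches held 315.7 Mb and 1115 coding genes, 3.53 per Mb, of which 711 were olfactory or vomeronasal receptors. Their islands numbered 0.697 per Mb. All but 7 of the 629 olfactory receptor genes were in them, as were all 11 Skint genes, 50 of the 85 type 2 and 39 of the 165 type 1 vomeronasal genes. Of the 115 secreted-protein genes inside, 14 were in them, 13 of these defensins, and none was a Mup, secretoglobin, Psg or Ceacam gene. They also held 2 of the 13 Pramel genes and 4 of the 35 Zfp, Zscan and Zkscan genes inside.

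The sites at the edges were 651 in number, since 19 of them stood alone between a pair of stretches. They had a median width of 456 bp against 606 bp for all autosomal sites. Their centres lay within 1 kb of an annotated start in 25.3% of cases (interval 22.16 to 28.83%) against 15.3% of all autosomal sites. Of the 19 single sites, 10 lay within 1 kb of a start. Just over the threshold lay a stretch of 500.7 kb on chromosome 18 with Skor2, a stretch of 501.7 kb on chromosome 1 with Npbwr1 and one of 506.1 kb on chromosome 11 without a coding gene. Just under it lay gaps of 498.7 kb on chromosome 5 without a coding gene, 498.1 kb on chromosome 11 with Rbfox3 and 497.8 kb on chromosome 3 that Zbbx overlaps.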

How the data were processed

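H3K4me1 ChIP-seq of NG3 cells was used as deposited. Per the study's methods and labels, Trim Galore (trimming), BWA (alignment, mm10 of release GRCm38.p6), SAMtools (filtering), Picard (merging of replicates) and MACS2 (broad peaks) were used by the authors. Tool versions and peak thresholds are not given in the sources used here. The deposited values are starts and ends of sites in bases, pooled over all samples, with no value per sample, so no test was made and depth is unknown.

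Stretches, genes and families were counted in Python 3.11.15 with NumPy 2.4.6 and numba 0.67.0 on GRCm38.p6 and GENCODE M21. Coordinates count from 1. N bases were not counted. Islands were called on repeat-masked sequence with 17 points per CpG against a penalty for every other base, at least 200 bp, 50% GC and an observed to expected ratio of 0.6. Wilson intervals are 95%. Functions were tested on simulated data and found 1199 of 1199 gaps and 50 of 50 islands.

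Members, gene lists and families were chosen with earlier results of these data known. Named genes were those of the 5 longest and the 5 most gene-rich stretches, the 10 longest islands, the 5 longest genes, the stretches and gaps nearest the threshold, families of all cells, and the ends of families with over 50% inside. Other genes, the classes by copied words, and the family lists in the closing section were chosen after their values were seen. Some genes and sequences that this rule names are not reported here.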

Additional observations from a re-analysis of the deposited data

Results flagged for a closer look

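The table holds 36 sites on 12 sequences outside the chromosomes, which enter no stretch or comparison above. No control of this kind exists in the table, and the number is given because these sequences were otherwise not analysed.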

How the results depend on the processing

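No paired analysis was possible because the deposited table holds no value per sample. Of 38 alternatives to 8 results, 30 were planned and 8 were added after seeing the data, and 12 left the value within 1.5 times of the count or within its 95% interval. All ratios to the rest stayed under 1. With a threshold of 250 kb there were 824 stretches, 22.85% of bases and 39.81% GC. With 1 Mb there were 141 stretches, 10.33% of bases, 1174 genes, 39.48% GC, an island ratio of 0.1113 and 52.73% receptors. When only sites of at least 500 bp ended a stretch there were 513 stretches with 24.19% of bases. With chromosome X the share of bases was 18.11%. GC without soft-masked bases was 40.54%. The gene density ratio was 0.4671 without Gm and Rik genes, 0.8189 with all annotated genes and 0.2796 without olfactory and vomeronasal receptors. The island ratio was 0.1125 with islands of at least 500 bp and 0.5439 without masking. The share of genes with an island was 4.693% with islands of at least 500 bp, and the receptor share 59.15% without Gm and Rik genes. In stretches placed once (added) the values were 13.18% of bases, 1115 genes, a density ratio of 0.3893, 39.48% GC, an island ratio of 0.08898 and 63.77% receptors. Intervals on bases are narrow because neighbouring bases were counted as independent. The sites' own threshold could not be varied.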

Other observations

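Smaller clusters chosen after their values were seen also lay inside, in stretches classed as placed once. The Fbxw13 to Fbxw28 cluster of F-box genes on chromosome 9 had 14 of 15 members inside, all in 1 stretch. All 8 placental cathepsins on chromosome 13 were inside, 6 of 7 Reg genes of the gut and pancreas on chromosome 6, 10 of 15 exocrine gland-secreted peptides on chromosome 17, 4 of 5 Acsm genes of kidney and liver metabolism on chromosome 7, 4 of 7 hyaluronidases and Spam1 on chromosome 6 and the 3 trefoil factors on chromosome 17. Of 17 Nlrp genes 13 were inside, 7 of them in stretches classed as placed once. Of 5 beta-globin genes 3 were inside and of 3 alpha-globin genes none, and neither these 3 nor 4 of the 5 beta-globin genes had a site within 1 kb of the start.

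The chromosomes differed in how much of them lay in stretches, from 1.37% of chromosome 10 and 5.64% of chromosome 19 to 27.3% of chromosome 6 and 30.5% of chromosome 7. Windows of 500 kb without a coding start were compared to hold gene density alike. On chromosome 10, 1 of 59 such windows had no site (1.69%, 95% Wilson interval 0.2998 to 8.996%), on chromosome 19 none of 17, on chromosome 16 3 of 61 (4.92%) and on chromosome 3 6 of 91 (6.59%). On chromosome 6 it was 34 of 72 (47.2%, 36.13 to 58.6%), on chromosome 14 32 of 76 (42.1%) and on chromosome 1 40 of 105 (38.1%). Neighbouring windows are not independent. Site density over whole chromosomes was 75.1 per Mb on chromosome 10, 83.4 on chromosome 19, 63 on chromosome 16 and 64.3 on chromosome 3. It was 61.8 on chromosome 6, 53.3 on chromosome 14 and 62.6 on chromosome 1. Whether these cells carry different numbers of copies of their chromosomes was not tested, since the table holds no read depth.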
